A study of Homo sapiens with 4 samples.

Results

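The interval described here is a stretch of human chromosome 8 that begins at position 119000001 in hg38, runs for 13 Mb and holds HAS2, LRATD2, MYC, PVT1 and ASAP1. Its members are all peaks within it in 3 deposited peak lists: 212 H3K27ac peaks of cells with an shRNA against SMARCB1, 247 H3K27ac peaks of cells with a control shRNA, and 12 peaks of a ChIP of SMARCB1 itself. That is 471 of 73833 peaks on the autosomes and X. All 3 libraries came from SK-Hep1, labelled as a human hepatic adenocarcinoma line, and cells carrying an shRNA were selected with puromycin, per the labels. The labels give neither the shRNA sequence nor whether the cells are a pool or a clone, and they do not say which shRNA the cells of the SMARCB1 library carried. Each group had 1 library, so the differences below have no replicates behind them and carry no p-value. Ranges in parentheses after a share are 95% Wilson intervals for the count alone, not for differences between cultures. They treat the peaks, regions or genes counted as independent. Neighbours need not be, so the ranges may be too narrow.

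H3K27ac is acetylation of a histone H3 lysine that marks active promoters and enhancers. SMARCB1 is a core subunit of the SWI/SNF complexes, which move nucleosomes and are found at promoters and enhancers. The part of chromosome 8 around MYC, a transcription factor that drives growth and proliferation, has few coding genes but many enhancers, some of which act on MYC over long distances in other cell types. PVT1 is a long non-coding RNA gene next to MYC. HAS2 makes hyaluronan, a polysaccharide of the extracellular matrix, and ASAP1 is an Arf GTPase-activating protein that acts on the actin cytoskeleton and adhesions. LRATD2, also known as FAM84B, is less well understood.

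The interval was chosen because of its H3K27ac peaks in these same files, so the positions of these peaks and their differences are given as a description. No peak crossed either boundary. At the low end the first knockdown peak inside began at 119416382 and the last one outside ended at 118921911, and in control cells the corresponding positions were 119054196 and 118924606. At the high end the last knockdown peak inside ended at 131905181 and the first one outside began at 132320836, against 131905048 and 132320688 in control cells. For SMARCB1 the innermost peaks at either end began at 120613929 and 131904028, and the nearest ones outside were at 117446210 and 133296981.

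The knockdown H3K27ac library held 10203310 tags and the control library 13235203, and the caller reported 55.07% and 53.78% as the efficiency of the immunoprecipitation. The control thus had 1.3 times as many tags, and the part of this difference in the narrow peaks found in control cells only was not tested. No tag total was found for the SMARCB1 library, and the level of SMARCB1 in either kind of cell was not analysed here. H3K27ac peaks cover the length over which the mark passed the calling threshold of the list concerned. Their height is not given in the lists, so covered length is the measure used below. It cannot tell a weaker mark in all cells from a mark lost in some of them. Of 8 hepatocyte marker genes, 7, among them ALB, APOA1 and HNF4A, carried no H3K27ac at either gene end (within 1 kb) in either library, and SERPINA1 did in both.

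Over the whole interval the knockdown and the control differed about as they did elsewhere, but this total hides a large gain and several losses. Knockdown peaks covered 492520 bp of the interval, or 3.79%, and control peaks 551581 bp, or 4.24%. The ratio of knockdown to control was 0.893, beside 0.897 in the rest of chromosome 8 and 0.892 in the rest of the genome. The 2 libraries agreed less on where the mark lay. Of the knockdown length, 80.2% was also covered in control cells, against 88.4% in the rest of chromosome 8 and 89.5% in the rest of the genome. Of the control length, 71.6% was also covered in knockdown cells, against 79.3% and 79.9%. Knockdown peaks alone covered 97681 bp and control peaks alone 156742 bp.

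Peaks without a counterpart were more frequent here than in the lists as a whole. Of the 212 knockdown peaks, 39 had no overlapping control peak, or 18.4% (13.8 to 24.2%), beside a background of 12.2% over all knockdown peaks. Of the 247 control peaks, 86 had no overlapping knockdown peak, or 34.8% (29.2 to 41.0%), beside a background of 17.7% over all control peaks. In the rest of chromosome 8 these shares were 11.9% (10.3 to 13.8%) and 18.3% (16.3 to 20.4%). The single-library peaks were narrow, with a median of 501 bp for those of the knockdown and 629 bp for those of the control. Among peaks of at least 1000 bp the shares were 8.27% and 12.1% in the interval, beside 2.78% and 3.81% over all such peaks.

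These peaks were gathered at a few places. Of the 39 knockdown peaks, 11 lay in the window from 122000001 to 122500000, beyond HAS2, where 12 knockdown peaks were found in all. Of the 86 control peaks, 33 lay in the 500 kb around ASAP1 and 28 in the 500 kb around PVT1. Outside these windows and the one from 126000001 to 126500000, 13 of 121 knockdown peaks (10.7%) and 20 of 127 control peaks (15.7%) had no counterpart. The shares over the whole lists were 12.2% and 17.7%. The windows left out were singled out with their values known, so the lower shares outside them follow in part from that choice.

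When the interval was divided into 26 windows of 500 kb, the covered length per window had a median of 8952 bp in knockdown cells and 8477.5 bp in control cells, beside 5661 and 6146 bp over all 6071 windows of the genome. The windows varied widely, and a few carried most of the mark. The window with MYC and the nearer part of PVT1, from 127500001 to 128000000, had 117452 bp in knockdown cells and 151024 bp in control cells. It ranked second of all 6071 windows in the knockdown list and first in the control list. The ASAP1 window, from 130000001 to 130500000, had 59036 bp in knockdown cells and 101544 bp in control cells. The window with CCDC26, GSDMC and CYRIB, from 129500001 to 130000000, had more in knockdown cells, 46757 bp against 41985 bp. Only 1 window, at the upper end of ADCY8 and beyond it from 131000001 to 131500000, had no H3K27ac in either library.

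**Figure D1:**
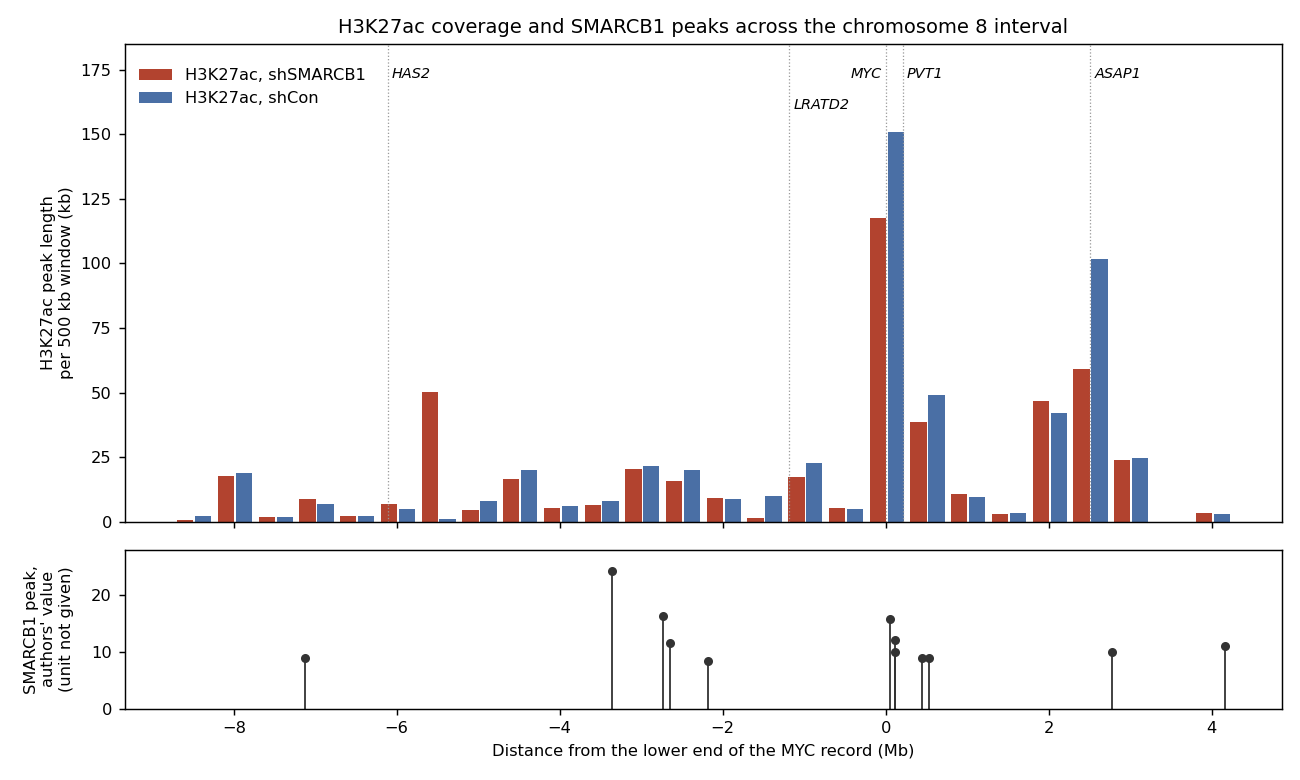
The upper panel plots the length covered by H3K27ac peaks (kb) in each of the 26 windows of 500 kb, with the shSMARCB1 library in red and the shCon library in blue, against distance from the lower end of the MYC record (Mb). The lower panel plots the 12 SMARCB1 peaks with the authors' value, whose unit is not given. The tallest bars stand at MYC and PVT1 (117452 and 151024 bp) and ASAP1 (59036 and 101544 bp), and beyond HAS2 a red bar of 50338 bp stands beside a blue one of 1070 bp.

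Windows with at least 5 kb of control H3K27ac were compared by their ratio. Of 18 such windows in the interval, 3 had a ratio of at most 1/1.5, or 16.7%, beside a background of 4.42% of 3257 windows, and 0 had a ratio of at least 1.5, beside 1.2%. The 3 were the window that holds ZHX2 from 122500001, with 4402 bp in knockdown cells and 8047 bp in control cells, the window below LRATD2 from 126000001, with 1554 and 9745 bp, and the ASAP1 window. The median ratio of the 18 windows was 0.845, and that of the 3257 windows 0.884. The window beyond HAS2 was not among the 18 because its control length was under 5 kb.

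The 500 kb centred on HAS2 held 4 knockdown peaks covering 7392 bp and 5 control peaks covering 5390 bp, a ratio of 1.37. The median over all 500 kb windows of the genome was 5661 bp in knockdown cells and 6146 bp in control cells. HAS2 lies at chromosome 8, 121612116 to 121641440. At its upper end, where the antisense gene HAS2-AS1 overlaps it, 1 knockdown peak of 3772 bp spanned 121639074 to 121642845. In control cells the same place carried 2 separate peaks of 501 and 807 bp, at 121639799 to 121640299 and at 121641768 to 121642574. Within 10 kb of its ends HAS2 thus had 3772 bp in knockdown cells and 1308 bp in control cells, a ratio of 2.88. The gene itself was covered over 2367 bp in knockdown cells and 501 bp in control cells. A peak farther out, at 121810714 to 121813824, was narrower in knockdown cells, with 2347 bp against 3080 bp. No SMARCB1 peak lay in this window.

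Beyond HAS2 the knockdown carried a run of acetylated regions that the control almost wholly lacked. Over 110 kb, from 122078815 to 122189090, 11 knockdown peaks covered 49837 bp, against 1 control peak of 1070 bp at 122129412 to 122130481. The stretch begins 437 kb above HAS2 and ends 591 kb below ZHX2, a zinc finger and homeobox repressor gene, and holds no coding gene and 1 annotated record, the pseudogene MRPS36P3. The widest knockdown peak there, of 19032 bp, spanned 122126694 to 122145725 and enclosed the control peak. The next, of 10478 bp at 122102376 to 122112853, was the widest of all 4146 knockdown peaks without a control counterpart in the genome, ahead of 1 of 7501 bp on chromosome 15. The others included 5579 bp at 122183512 to 122189090, 4204 bp at 122164964 to 122169167, 2900 bp at 122083130 to 122086029, 2218 bp at 122179574 to 122181791 and 2118 bp at 122078815 to 122080932. The remaining 4 were between 501 and 1100 bp wide. Another knockdown peak of 501 bp lay at 122316293 in the same window.

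The window that holds this stretch, from 122000001 to 122500000, had 50338 bp in knockdown cells and 1070 bp in control cells, a ratio of 47.0. Its difference of 49268 bp and its ratio both ranked first of all windows in the genome, of which 6071 had a difference and 4701 a ratio. The largest gain outside the interval was 37561 bp, with 86396 bp in knockdown cells and 48835 bp in control cells, on chromosome 2 from 189000001. Without the window beyond HAS2 the ratio over the interval was 0.803 in place of 0.893. A lower ratio was certain, because that window was left out for its gain while windows with large losses, such as that of ASAP1, stayed in. The nearest SMARCB1 peaks to the stretch were 1.46 Mb below it and 2.18 Mb above it. Both H3K27ac lists were called against the same control input, so no input of the knockdown cells enters this comparison.

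**Figure D2:**
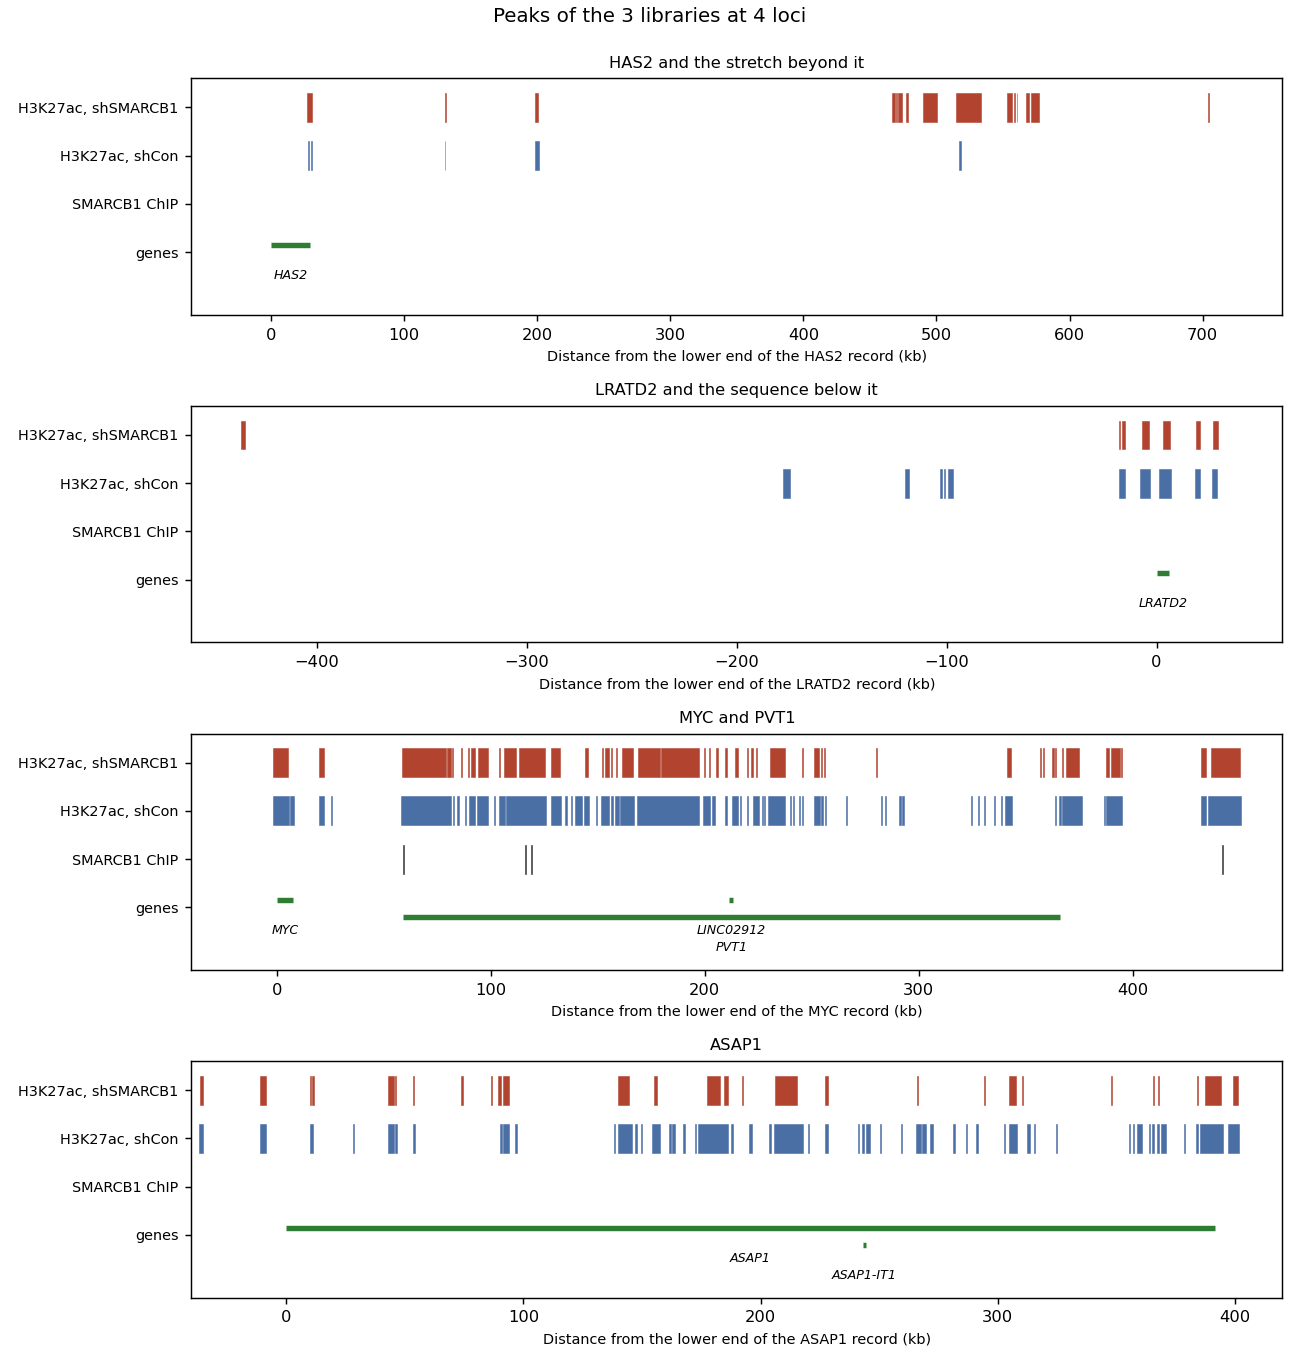
Peaks of the H3K27ac shSMARCB1, H3K27ac shCon and SMARCB1 libraries are drawn to scale at 4 loci, with gene records in green, against distance from the lower end of the named gene's record (kb). Beyond HAS2 a run of 11 knockdown peaks faces 1 control peak. Below LRATD2 and within ASAP1, control peaks lack a counterpart in knockdown cells. MYC and PVT1 are acetylated in both libraries.

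The acetylated region over the lower end of MYC was alike in both libraries. MYC lies at 127735434 to 127742951, and both libraries had a peak of 7377 bp over its lower end, at 127733475 to 127740851 in knockdown cells and 127733520 to 127740896 in control cells, with 7332 bp in common. The control had another peak of 1823 bp over the upper end of the gene, at 127741787 to 127743609, with no counterpart in knockdown cells. Within 10 kb of its ends MYC had 7377 bp in knockdown cells and 9200 bp in control cells. Some way above it, 2061 bp at 127755233 in knockdown cells faced 2473 bp at 127754932 in control cells. The 500 kb centred on MYC held 32 knockdown peaks covering 116450 bp and 39 control peaks covering 149463 bp, a ratio of 0.779. Of these, 3 knockdown peaks and 16 control peaks had no counterpart. The MYC window ends at 127989192, and the PVT1 window described next begins at 127697890. Most of the covered length of the MYC window lay within PVT1, so the ratios of both windows count largely the same peaks. No SMARCB1 peak lay at either end of MYC.

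PVT1, at 127794524 to 128101256, had the greatest covered length of any gene record of the interval. It was covered over 111973 bp in knockdown cells and 146984 bp in control cells, a ratio of 0.762. The record is long, at 306733 bp, and a larger part of the short MYC record was covered (5418 and 6628 of 7518 bp). The 500 kb centred on PVT1 had 47 knockdown peaks covering 150554 bp and 59 control peaks covering 195370 bp, a ratio of 0.771. When peaks within 10 kb of each other were counted as 1 cluster, an alternative added after the values were seen, the knockdown list had 2 clusters here. They ran from 127793785 to 127867950 with 54264 bp and from 127879284 to 127991530 with 53750 bp, and ranked 12th and 13th of 23462 by covered length. The control list had 1 cluster, from 127793425 to 128001735, with 139351 bp, and it ranked second of 23702. A control peak of 3336 bp at 127874598 to 127877933, without a knockdown counterpart, lies in the gap between the knockdown clusters. A longer joining distance makes these 1 cluster, so their ranks depend on it, while the length does not. From 127793425 to 128001735 lie 21.9% of the knockdown length and 25.3% of the control length of the interval.

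The widest regions of PVT1 were present in both libraries. After peaks of both lists within 1 kb were joined, the region at 127903655 to 127932697 had 27589 bp in knockdown cells, as 2 peaks, and 29038 bp in control cells, as 1 peak. The region over the lower end of PVT1, at 127793425 to 127818342, had 23011 bp in knockdown cells and 24152 bp in control cells, and that at 127839107 to 127861315 had 18755 and 21709 bp. The region at 127887161 to 127902510 was cut back to 8074 bp in knockdown cells, against 13200 bp in control cells, and that at 127934506 to 127941428 to 1632 bp, against 4879 bp. Within PVT1 the median width of the 7 knockdown peaks without a counterpart was 501 bp, and that of the 25 such control peaks 632 bp.

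Past PVT1, at 128167262 to 128185914 and within the uncharacterised non-coding record LOC124902020, a region had 16025 bp in knockdown cells and 17618 bp in control cells. The region over the upper end of PVT1, at 128101142 to 128111691, had 6711 bp in knockdown cells and 10019 bp in control cells. Of the microRNA genes inside PVT1, MIR1204 lay within H3K27ac in both libraries. MIR1205 lay in that of control cells only, with 0 of its bases covered in knockdown cells and 63 in control cells. It spans 127960633 to 127960695, at the edge of a control peak that ended at 127960731. The nearest knockdown peak ended at 127959946, so both libraries had H3K27ac within 1 kb of MIR1205. MIR1206 was covered in neither.

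Around LRATD2 the knockdown had the lowest ratio of the 5 gene windows. The 500 kb centred on it held 6 knockdown peaks covering 12799 bp and 10 control peaks covering 27492 bp, a ratio of 0.466. LRATD2 lies at 126552443 to 126558478, and its own peak was 3222 bp wide in knockdown cells and 5307 bp in control cells. The loss was greatest below the gene, where 5 control peaks of 646 to 3329 bp between 126374392 and 126455670 had no counterpart, among them 3329 bp at 126374392 to 126377720 and 2729 bp at 126452942 to 126455670. Each of the 5 other control peaks, closer to the gene, overlapped knockdown H3K27ac. Within 10 kb of its ends LRATD2 had 6326 bp in knockdown cells and 9856 bp in control cells. A knockdown peak of 1554 bp at 126116394, 434 kb below LRATD2, had no control counterpart.

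ASAP1 also had less H3K27ac in knockdown cells. The gene spans 130052104 to 130443674 and was covered over 44500 bp in knockdown cells and 83309 bp in control cells, a ratio of 0.534. The 500 kb centred on it had 32 knockdown peaks covering 59850 bp and 56 control peaks covering 101878 bp, a ratio of 0.587. Its window in the fixed division, with a difference of −42508 bp (knockdown minus control), had the largest loss of all 6071 windows, ahead of one of −41090 bp on chromosome 1 from 93500001. Inside the gene, 6 of 25 knockdown peaks and 33 of 50 control peaks had no counterpart. These 33 were narrow, with a median of 501 bp and a widest peak of 2055 bp, and together came to 26307 bp.

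Most of the wide regions of ASAP1 had less covered length in knockdown cells, but some differed little. The region at 130356644 to 130360062 had 3195 bp in knockdown cells and 3419 bp in control cells. That at 130141629 to 130145867 had more in knockdown cells, with 3320 bp against 2971 bp. At 130224357 to 130238560 the knockdown had 7452 bp and the control 13413 bp, which was the largest loss of any joined region in the interval and the 19th of 36423 in the genome. At 130257888 to 130270115 the values were 9569 and 12228 bp, and at 130317639 to 130321678 they were 501 and 3414 bp. Over the upper end of the gene, at 130435808 to 130447137, the knockdown had 7272 bp and the control 10416 bp. Within 10 kb of its ends ASAP1 had 11184 bp in knockdown cells and 16560 bp in control cells. The intronic transcript record ASAP1-IT1 had 0 bp within 10 kb of its ends in knockdown cells and 3049 bp in control cells. There was no SMARCB1 peak within the gene, and the nearest one, at 130514546 to 130515045, lay 70.9 kb above it.

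The next window down, around CCDC26 and GSDMC, had the second-largest gain of the interval. A cluster at 129676894 to 129729279 covered 31459 bp in knockdown cells and 27033 bp in control cells. Its widest region, at the upper end of the non-coding gene CCDC26, was alike in both, with 12562 and 12708 bp. The region over the lower end of GSDMC, a gasdermin, had 9096 bp in knockdown cells and 7066 bp in control cells. Inside GSDMC, 3835 against 2453 bp and 2742 against 1378 bp were covered at 129720462 and 129725597. CYRIB, a regulator of Rac1 signalling next to ASAP1, was covered over 10480 bp in knockdown cells and 7984 bp in control cells, and at its ends over 1558 and 1705 bp.

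Joining the peaks of both libraries gave 244 regions in the interval, of which 147 were present in both. Their ratio of knockdown to control length had a median of 0.914, beside 0.907 over the 27886 such regions of the genome. Of the 147, 13 were at least 1.5 times as long in knockdown cells, or 8.84% (5.24 to 14.5%), beside a background of 4.82%, and 24 were at most 1/1.5 as long, or 16.3% (11.2 to 23.1%), beside 13.0%. Within this span were 110 regions (74.8%, beside 82.2%). Another 31 of the 244 regions were found in the knockdown only, or 12.7% (9.1 to 17.5%), beside 9.51%, and 66 in the control only, or 27% (21.9 to 32.9%), beside 13.9%. The share of control-only regions thus stood farthest from its background.

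Of the 48 regions that overlapped ASAP1, 0 were wider, 6 narrower and 8 within the fold, while 6 were found in the knockdown only and 28 in the control only. The 40 regions of PVT1 included 1 wider, 6 narrower, 12 within, 4 knockdown-only and 17 control-only regions. All 9 regions of the stretch beyond HAS2 were wider (1) or found in the knockdown only (8). The other 147 regions included 11 wider and 12 narrower ones, with 13 found in the knockdown only and 21 in the control only. Besides HAS2 and GSDMC, the wider regions included the end of TBC1D31 (2029 and 1298 bp), an intergenic region 44.4 kb from SNTB1 (1909 and 631 bp) and a region in the non-coding gene LINC00824 (2360 and 1063 bp). A knockdown-only region of 2333 bp lay 16.6 kb from ADCY8, an adenylyl cyclase gene, at 130761360 to 130763692.

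**Figure D3:**
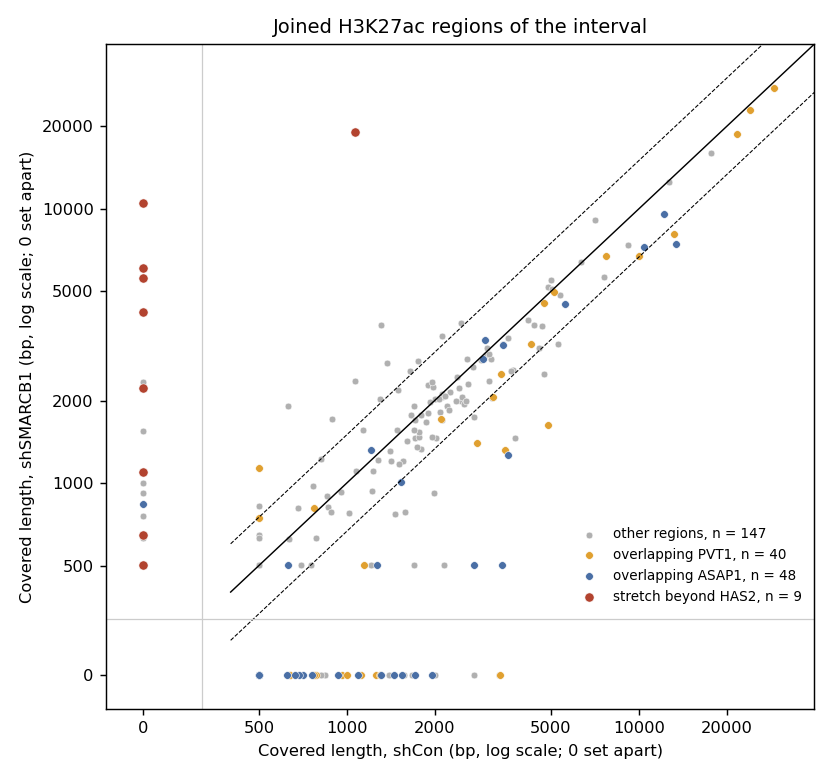
Each point is 1 of the 244 joined H3K27ac regions, with its covered length (bp) in the shSMARCB1 library on the vertical axis and in the shCon library on the horizontal axis, both logarithmic, and regions at 0 in 1 library set apart. The solid line marks equal lengths and the dashed lines a fold of 1.5. The 9 regions of the stretch beyond HAS2 lie above the dashed lines or at 0 on the control axis, while 28 of the 48 regions of ASAP1 lie at 0 on the knockdown axis.

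The interval held 12 of the 4453 SMARCB1 peaks, and the rest of chromosome 8 held 129. The 12 had authors' values of 8.45 to 24.3. Their median was 10.6, beside 11.6 for the whole list, and 5 of the 12 reached the list's median. H3K27ac peaks overlapped by SMARCB1 made up a smaller share than in the whole lists. They were 8 of 212 knockdown peaks, or 3.77% (1.92 to 7.27%), and 8 of 247 control peaks, or 3.24% (1.65 to 6.26%). The backgrounds were 8.82% and 8.65%. The interval also has fewer peaks at gene ends than the lists as a whole, at 14.6% of knockdown and 13.0% of control peaks, beside 32.7% and 32.4%. The part played by that difference was not tested.

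Of the 12 SMARCB1 peaks, 9 overlapped H3K27ac, and the same 9 did so in both libraries, or 75% (46.8 to 91.1%), beside backgrounds of 69.0% for knockdown and 70.6% for control H3K27ac. The peak of highest value, 24.3, lay at chromosome 8, 124371828 to 124373295, over the upper end of TMEM65 and was classed as 5' UTR by the authors. The H3K27ac peak under it was 2027 bp wide in knockdown cells and 2074 bp in control cells. At SQLE, which encodes squalene epoxidase of cholesterol synthesis, a promoter peak of value 16.4 at 124998319 lay in H3K27ac of 3931 bp in knockdown cells and 4184 bp in control cells. Another promoter peak, of value 11.6 at 125091346, lay between WASHC5, a subunit of the WASH complex of endosomes, and NSMCE2, a SUMO ligase of the SMC5/6 complex, in H3K27ac of 1357 bp in knockdown cells and 1745 bp in control cells. EFR3A, which anchors a lipid kinase at the plasma membrane, had a 5' UTR peak of value 11.1 at 131904028, with 1564 and 1137 bp. These promoter regions kept their mark and changed in length by less than a fold of 1.5.

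PVT1 had 3 SMARCB1 peaks. The promoter peak, of value 15.8 at 127794245 to 127794744, lay in the H3K27ac peak of 20758 bp in knockdown cells and 23398 bp in control cells, and 51.3 kb from the nearer end of MYC. The intronic peaks, of values 10.0 and 12.1 at 127851334 and 127854211, shared 1 H3K27ac peak, which was 12379 bp wide in knockdown cells and 18744 bp in control cells. A SMARCB1 peak of value 8.98 at 128177287, classed by the authors as intergenic, lay in the region past PVT1 within LOC124902020, in peaks of 13814 and 15264 bp. Another of value 8.45 at 125555996, in the non-coding gene LINC02964 some 118 kb from TRIB1, lay in H3K27ac that was wider in knockdown cells, at 2784 bp against 1758 bp. It was the only SMARCB1 peak of the interval in a region called wider.

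The 3 SMARCB1 peaks without H3K27ac had values of 8.98, 8.98 and 10.0. They lay in an intron of SNTB1, a syntrophin, at 120613929, and in intergenic sequence at 128263658 and at 130514546, with the nearest knockdown H3K27ac peak 15660, 5155 and 3298 bp away and the nearest control peak 15579, 5206 and 3443 bp away. Joined regions with a SMARCB1 peak numbered 8. Of these, 7 were within the fold of 1.5 and 1 was wider. None of the 24 narrower regions, the 66 control-only regions or the 31 knockdown-only regions had a SMARCB1 peak. The same shares over the joined regions of the genome are not given here, so these counts only describe the interval. H3K27ac peaks with SMARCB1 were wider than those without, here as over the whole lists. In the interval their median, from 8 peaks in each list, was 3358 bp against 1458 bp in knockdown cells. In control cells it was 3129 against 1282 bp. Over the whole lists the medians were 2264 against 1530 bp and 2513 against 1618 bp. H3K27ac peaks with SMARCB1 seldom lack a counterpart anywhere: over the whole lists 1.5% of the 3005 such knockdown peaks and 2.82% of the 3055 such control peaks did, and 0 of 8 in each list did here.

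Coding genes of the interval mostly carried the mark in both libraries. Of 45 protein-coding genes, 34 had H3K27ac within 1 kb of an end in both, or 75.6% (61.3 to 85.8%), beside a background of 61.4% of 19821 genes. It was found in the knockdown only for 0 genes (background 0.752%), in the control only for 2, or 4.44% (background 2.18%), and in neither for 9 (background 35.7%). The 2 were DEPTOR, an inhibitor of mTOR, with 134 bp in knockdown cells and 501 bp in control cells within 10 kb of its ends, and FBXO32, a muscle ubiquitin ligase subunit, with 0 and 501 bp. Both rest on a control peak of the smallest width the caller gives. Of the 38 genes with control H3K27ac within 10 kb of their ends, 31 had less in knockdown cells (81.6%) and 7 more, with a median ratio of 0.9. Over all 14633 such genes the share with less was 78.0% and the median ratio 0.886, so the genes of the interval were near the background. Neighbours can share a peak, as MRPL13 and MTBP do, so the genes are not independent of each other.

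**Figure D4:**
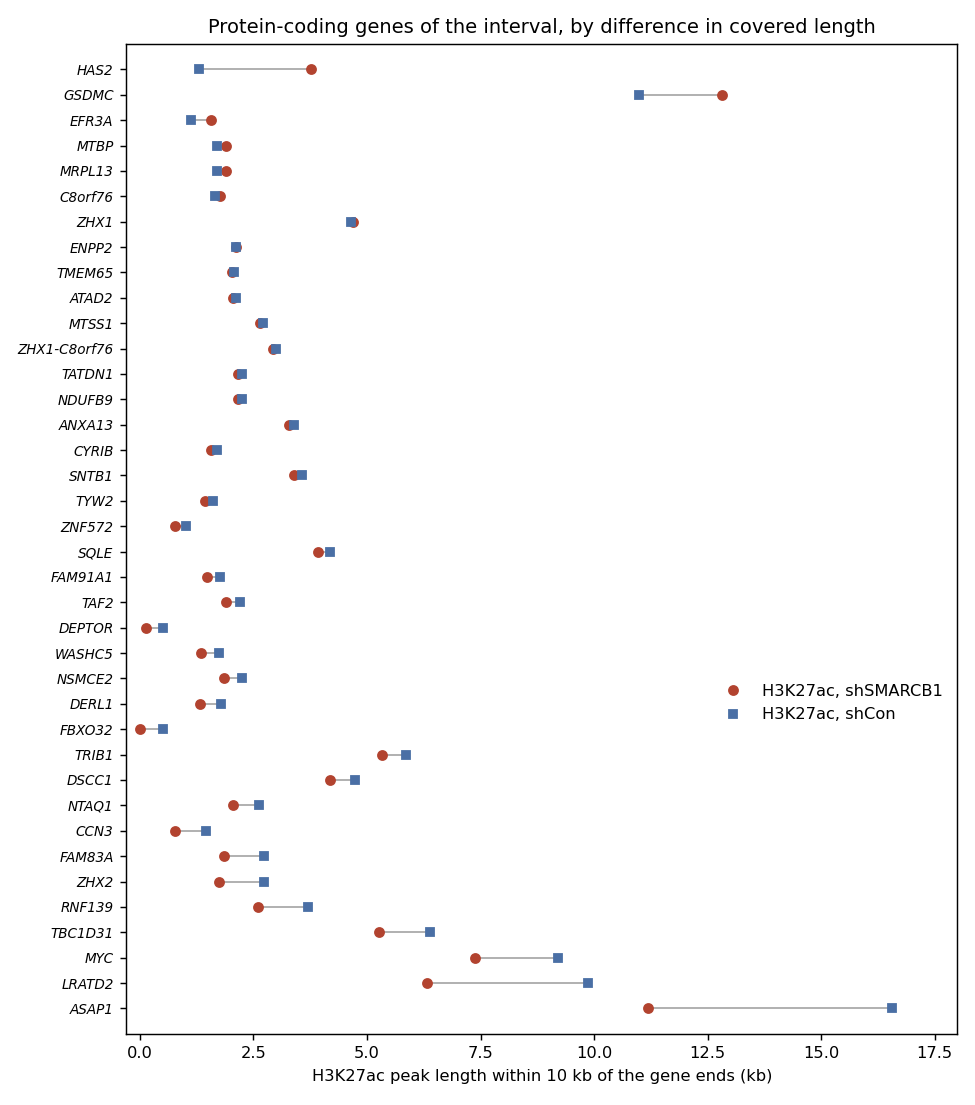
Length covered by H3K27ac peaks within 10 kb of the gene ends (kb) for the 38 protein-coding genes with any, with red circles for the shSMARCB1 library and blue squares for the shCon library, ordered by the difference. HAS2 (3772 and 1308 bp) and GSDMC (12821 and 10995 bp) stand at the top, and MYC, LRATD2 and ASAP1 at the bottom (7377 and 9200, 6326 and 9856, and 11184 and 16560 bp).

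Genes were also grouped by role. Among all protein-coding genes with control H3K27ac within 10 kb of their ends, 78.0% had less in knockdown cells. Of all protein-coding genes, 61.4% were marked at an end in both libraries. The list counts below also include genes without H3K27ac near their ends, which the 78.0% leaves out. Of 5 genes for matrix and secreted factors, HAS2 and CCN3, a matricellular protein, were marked at an end in both libraries, and CCN3 had 768 bp in knockdown cells and 1457 bp in control cells. ENPP2, the autotaxin gene, was marked at neither end but was covered over 12467 bp of its body in knockdown cells and 12721 bp in control cells. COL14A1, a collagen, had none. Together 1 of the 5 had more in knockdown cells, 2 less and 2 none in either, with a median ratio of 0.992. TNFRSF11B, also on this list, lies outside the interval.

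Among 6 transcription and chromatin genes, 5 were marked in both, 1 had more in knockdown cells and 4 less, with a median ratio of 0.863. Besides MYC they included ZHX1, a zinc finger and homeobox gene, with 4696 bp in knockdown cells and 4656 bp in control cells, and its relative ZHX2, with 1744 and 2723 bp. TAF2, a subunit of the basal factor TFIID, had 1904 and 2205 bp, and the OCT4 retrogene POU5F1B was marked in neither. Of 8 genes for cytoskeleton, membrane and adhesion, 7 were marked in both, 1 had more in knockdown cells and 6 less, with a median ratio of 0.952. After ASAP1 these were led by SNTB1 (3392 and 3562 bp), the annexin gene ANXA13 (3274 and 3388 bp) and MTSS1, an actin-binding membrane protein (2651 and 2714 bp).

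The 5 genes for ubiquitin, SUMO and protein quality each had less in knockdown cells, as most genes did, with a median ratio of 0.745. They included TRIB1, a pseudokinase that recruits a ubiquitin ligase, with 5341 bp in knockdown cells and 5865 bp in control cells, RNF139, a ubiquitin ligase of the endoplasmic reticulum, with 2594 and 3699 bp, and DERL1, which acts in degradation from the endoplasmic reticulum, with 1333 and 1789 bp. Of 4 growth signalling genes 2 were marked in both, 1 had more in knockdown cells and 2 less, with a median ratio of 0.642. LRATD2 led this list, and MTBP, which binds MDM2, had 1902 and 1704 bp. All 6 metabolism and organelle genes were marked in both, 1 with more and 5 with less in knockdown cells, and their median ratio was 0.957. SQLE led, and TATDN1, NDUFB9, a subunit of respiratory complex I, and TMEM65 had between 2027 and 2157 bp in knockdown cells and between 2074 and 2253 bp in control cells.

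The list for DNA replication and repair held DSCC1, which acts in sister chromatid cohesion, with 4186 bp in knockdown cells and 4732 bp in control cells, and NSMCE2, which is also on the ubiquitin and SUMO list. Its remaining entry, TBC1D31, is a protein of centriolar satellites without that role, and had 5254 and 6383 bp. The 3 entries had a median ratio of 0.827, and each had less in knockdown cells. Of 14 non-coding genes near HAS2 and MYC, HAS2-AS1, PVT1, CASC11 and CCDC26 were marked at an end in both libraries and the other 10 in neither. Of these 14, 3 had more in knockdown cells within 10 kb of their ends and 3 less, with a median ratio of 0.999. CASC11 shares the MYC peak, with 7377 and 9200 bp, and CCAT1 had 5090 bp in knockdown cells and 5044 bp in control cells nearby. The lists are small and were set with earlier results of these data known, so their counts and medians only describe them.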

How the data were processed

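ChIP-seq of SMARCB1 and of H3K27ac in SK-Hep1 cells was deposited as 1 peak list per library, and an input library was not analysed here. The submitters' processing notes name Bowtie2 and HOMER, whose versions are not stated there, and the hg38 build. HOMER called the H3K27ac peaks in histone style, per the file headers, taking the control input for both lists. Its settings were 500 bp for the peak size, 1000 bp for the minimum distance and 4-fold for the enrichment required over input and surroundings. The tag threshold and the fragment length differed, at 10 tags and 158 bp for the knockdown list and 11 tags and 190 bp for the control list. The score column of the deposited H3K27ac lists holds 1 value in every row and was not used. The number attached to each deposited SMARCB1 peak is the authors' own, without a unit, and was used only to describe peaks.

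Positions are printed 1-based. Peaks on chromosome Y and on unplaced sequences were not used. Overlap of 1 base counted as shared. Gene records are those of RefSeq for GRCh38.p14, read without strand, so a gene end is either end of the record. Only records on the assembled chromosomes were kept. Peaks of both lists within 1 kb were joined into regions, and 1.5 was the fold used. Ratios are knockdown over control. The overlap code was tested on simulated data. Alternatives covered the overlap, peak width, joining, fold, window and gene end. Genes and regions were named by a rule: HAS2, MYC, PVT1, LRATD2 and ASAP1, all SMARCB1 peaks with their nearest genes, the 10 longest regions, the 6 largest differences per direction, genes marked in 1 library only, and up to 4 genes per role list. Regions outside this rule were named after their values were seen. The interval, the gene lists and the hepatocyte markers were chosen with earlier results of these data known. The computing was done in Python 3.11.15 with pandas 2.3.3, NumPy 2.4.6, matplotlib 3.10.9 and SciPy 1.17.1.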

Additional observations from a re-analysis of the deposited data

How the results depend on the processing

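No paired analysis was possible because each group had 1 library. The ratio of covered length over the interval was 0.918 with peaks of at least 1000 bp, and 0.803 without the window beyond HAS2, an alternative added after seeing the data. Dividing covered length by the tag totals turned its direction, to 1.16, in the interval as in the whole genome, since the knockdown library has fewer tags. Covered length does not grow in proportion to tags, so depth limits how far the ratio can be read. With peaks of at least 1000 bp, peaks without a counterpart made up 8.27% in the knockdown and 12.1% in the control, beside 2.78% and 3.81% over all peaks. When 50% of a peak had to be covered, the knockdown share was 23.6% and the control share 41.3%, beside 14.9% and 22.3% over all peaks. With a fold of 2, 5 regions were wider and 14 narrower, beside 2.03% and 4.43% over all regions. All SMARCB1 peaks at or above the list's median value, 100% of 5, overlapped H3K27ac of both libraries, beside 82.1% and 82.6% of all such peaks with knockdown and control H3K27ac. With peaks of at least 1000 bp, 2 genes were marked in the knockdown only, beside 0.59% over all genes. The ratios around HAS2, MYC, PVT1, LRATD2 and ASAP1 kept their direction with the gene record and 250 kb on each side and with peaks of at least 1000 bp. The lowest was 0.458 at LRATD2 and the highest 1.99 at HAS2. For HAS2, MYC and LRATD2 the wider window was nearly the same, at 529325, 507518 and 506036 bp. These ratios were not scaled by the tag totals. Those around MYC (0.779) and PVT1 (0.771) lay near the knockdown to control ratio of tags, 0.771, so depth limits how far their direction can be read. The cause of the differences between the libraries was not tested.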

Other observations

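Long stretches of the interval carried no H3K27ac peak. The longest in both libraries began inside ADCY8, at 130956303 in knockdown cells and 130905734 in control cells, and ran for 900 kb and 950 kb. The sequence below MYC, from 127226980 in knockdown cells and 127226703 in control cells, was free of peaks over 506 and 507 kb and includes POU5F1B. Around FER1L6, a ferlin family gene, the peak-free stretch was 552 kb in knockdown cells and 602 kb in control cells. A gap of 556 kb between 122130482 and 122686806, seen in control cells, was interrupted in knockdown cells by the gained peaks beyond HAS2. A gap of 673 kb below LRATD2 in control cells, from 125701076 to 126374391, held the knockdown peak at 126116394.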
